A study of Mus musculus with 6 samples.

Results

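Imprinted genes are expressed mainly or only from the copy inherited from one parent. The 41 genes described here are mouse genes with established imprinted expression, chosen by name from a list of well-known imprinted loci and found by Ensembl identifier among the 46983 rows of a table of RNAseq counts. Of the 41, 22 are known as paternally expressed, 17 as maternally expressed and 2 (Grb10 and Gnas) as expressed from either copy depending on isoform or tissue, and together they cover 17 loci. RNA was sequenced from GFP+ neural crest cells (NCCs) sorted at E11.25, with 3 control and 3 BAF155/170-deficient libraries. Control embryos were Wnt1 Cre/+, BAF155 flox/+, BAF170 flox/+ and Rosa26 mTmG/+, and deficient embryos carried the same Cre and reporter with BAF155 flox/flox and BAF170 flox/flox, so that both groups carried at least 1 floxed copy of each gene and the control cells had also recombined it. BAF155 (Smarcc1) and BAF170 (Smarcc2) are scaffold subunits of the BAF chromatin remodelling complex. Wnt1 Cre recombines in the dorsal neural tube, from which the crest leaves, and GFP marks every cell in which Cre has recombined the reporter, together with its descendants.

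At an imprinted locus the parental copies carry the same genes but different DNA methylation at an imprinting control region, a mark set in the egg or the sperm and kept through the divisions of the embryo. The control region acts on its neighbours in cis, either by insulation, as where CTCF on the maternal copy keeps enhancers from Igf2 and leaves them to H19, or by driving a long noncoding RNA that silences genes on the same copy, as Kcnq1ot1 and Airn do. Many imprinted genes act on growth and are highly expressed in embryonic mesenchyme, neural tissue and placenta, then fall after birth. Counts of reads per gene do not separate the parental copies, so every value below is the sum of both.

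The libraries held between 8191219 and 19808620 counts, and all 3 control libraries were shallower than all 3 deficient ones. Smarcc1 had 35.1 to 55.0 CPM (counts scaled to the normalized library size) in controls and 24.5 to 29.4 CPM in deficient libraries, a log2 fold change of −0.71 ± 0.16 (SE) with an adjusted p of 0.0676 (edgeR quasi-likelihood test, Benjamini-Hochberg adjustment), while Smarcc2 had means of 91.5 and 85.0 CPM (−0.11 ± 0.06, adjusted p = 0.251 in the same edgeR test). The deposited rows are whole genes, so reads outside the floxed part count towards them. Markers of neural crest differed widely in level. Sox10, a defining factor of migrating and glial crest, had means of 4.78 CPM in controls and 1.177 CPM in deficient libraries. Twist1, a factor of crest mesenchyme, had 9.57 and 4.18 CPM. The 21 listed mesenchymal crest markers summed to mean levels of 325 and 171 CPM, with Col1a2, a collagen gene, at 89.9 and 53.2 CPM. The 14 listed macrophage markers summed to 13521 and 15372 CPM. Among them Ctss, a lysosomal protease, had 3592 and 4074 CPM and Lyz2, lysozyme, 3244 and 3705 CPM. RNA labelled as neural crest thus held high levels of macrophage transcripts in both groups.

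The start regions of 5 members are shown because the results below turn on how their loci moved. Each is 300 bases, from 250 before to 50 after an annotated RefSeq start on GRCm38.p6. Capitals mark TGCCGC, the letters read by the imprint-protecting factor ZFP57 when methylated, or GGGGCCCC, the letters of a binding motif of PLAGL1, itself the product of an imprinted gene. Both motifs were searched on both strands, and neither overlaps the other. TGCCGC on the opposite strand appears as GCGGCA. The first, on the minus strand at chr7:143296498-143296797, belongs to the paternally expressed noncoding RNA that silences its neighbours in the Kcnq1 domain, and it held neither motif.
Kcnq1ot1: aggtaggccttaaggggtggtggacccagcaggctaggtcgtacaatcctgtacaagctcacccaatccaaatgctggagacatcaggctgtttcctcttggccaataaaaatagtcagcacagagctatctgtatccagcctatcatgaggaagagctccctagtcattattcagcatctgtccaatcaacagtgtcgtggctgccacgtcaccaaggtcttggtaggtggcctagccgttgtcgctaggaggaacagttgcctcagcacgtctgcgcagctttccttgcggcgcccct
The next pair came from a single locus in which Nnat lies within an intron of Blcap, on opposite strands, with Nnat on the plus strand at chr2:157559828-157560127 and Blcap on the minus strand at chr2:157566312-157566611.
Nnat: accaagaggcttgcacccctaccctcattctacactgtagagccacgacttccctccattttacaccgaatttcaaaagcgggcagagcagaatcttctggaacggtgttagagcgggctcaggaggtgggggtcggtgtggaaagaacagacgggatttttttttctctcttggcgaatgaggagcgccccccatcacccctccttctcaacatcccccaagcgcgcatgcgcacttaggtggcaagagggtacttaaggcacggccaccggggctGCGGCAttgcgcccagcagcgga
Blcap: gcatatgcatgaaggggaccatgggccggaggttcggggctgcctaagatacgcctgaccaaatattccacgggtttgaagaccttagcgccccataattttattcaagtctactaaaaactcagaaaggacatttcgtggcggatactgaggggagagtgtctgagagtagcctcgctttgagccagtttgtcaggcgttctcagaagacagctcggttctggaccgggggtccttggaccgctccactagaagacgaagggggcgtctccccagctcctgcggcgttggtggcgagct
Meg3 starts the run of maternally expressed noncoding RNAs of the Dlk1-Dio3 locus, on the plus strand at chr12:109540746-109541045, and Peg3, on the minus strand at chr7:6730370-6730669, shares 263 of its bases with the window of the divergent gene Usp29.
Meg3: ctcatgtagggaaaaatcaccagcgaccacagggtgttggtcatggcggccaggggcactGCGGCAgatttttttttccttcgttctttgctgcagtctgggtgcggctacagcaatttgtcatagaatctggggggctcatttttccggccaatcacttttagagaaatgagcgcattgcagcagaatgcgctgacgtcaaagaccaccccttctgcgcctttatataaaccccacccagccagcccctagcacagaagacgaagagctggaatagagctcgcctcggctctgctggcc
Peg3: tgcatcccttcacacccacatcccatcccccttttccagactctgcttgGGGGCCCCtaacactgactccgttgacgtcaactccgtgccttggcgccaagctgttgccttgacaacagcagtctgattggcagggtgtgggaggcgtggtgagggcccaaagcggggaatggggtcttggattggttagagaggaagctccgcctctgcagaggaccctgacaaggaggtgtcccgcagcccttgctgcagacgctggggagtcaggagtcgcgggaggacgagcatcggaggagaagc
RefSeq start windows were matched for 35 members, 53 windows in all. TGCCGC was in 12 of the 53 (22.6%), against 11.6% of 32851 windows of all genes. These 12 windows belong to 11 genes, since overlapping windows of Mest count apart. Among the members called lower below, 7 had windows and H19 had none, and TGCCGC was in 2 of their 12 windows (16.7%). GGGGCCCC was in 3 of the 53 (5.66%), those of Ppp1r9a, Peg3 and Usp29, against 1.08% of all windows. The match in Peg3 and that in Usp29 are the same bases read from both windows, so the 3 windows hold 2 sites. The median window of a member held 13 CpG dinucleotides and that of all genes 7. A match to these letters describes the window and is not a binding site.

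In BAF155/170-deficient NCCs 8 imprinted genes at 6 loci were called lower, and none was called higher. Of the 41 members, 37 passed the filter on low counts, 31 of them with a negative and 6 with a positive log2 fold change. Of all 13961 genes tested, 52.3% had a negative value. The median was −0.62 for the members and −0.02 for all genes. The edgeR quasi-likelihood test was used, and a call needed a Benjamini-Hochberg adjusted p no higher than 0.1 together with a log2 fold change of 0.58 or more in size and at least 2 CPM on average. By this rule 8 of 37 members (21.6%) were called lower, where the share of all genes was 4.88%, and 0 were called higher, where the share was 0.0573%. At an unadjusted p under 0.05 (edgeR) there were 17 lower and 0 higher members, where 15.2% of all genes were lower and 12.1% higher at this limit, and DESeq2 and limma-voom also called 0 higher. The 8 were H19, Rian and Mirg, which are maternally expressed noncoding RNAs, and Kcnq1ot1, Dlk1, Snrpn, Nnat and Slc38a4, which are paternally expressed. All 3 deficient libraries lay below all 3 controls for 14 of the 37, with 16.4% of all genes doing so, and above them for 1, with 15% of all genes. Of the 37, 31 reached the filter level of 0.82 CPM in every library, while Zim1 reached it through control libraries alone and Slc22a18 through deficient libraries alone. The directions of Zim1 and Slc22a18 were thus fixed by the filter. In bulk RNA of this kind, fewer cells of a type and less RNA per cell cannot be told apart.

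**Figure D1:**
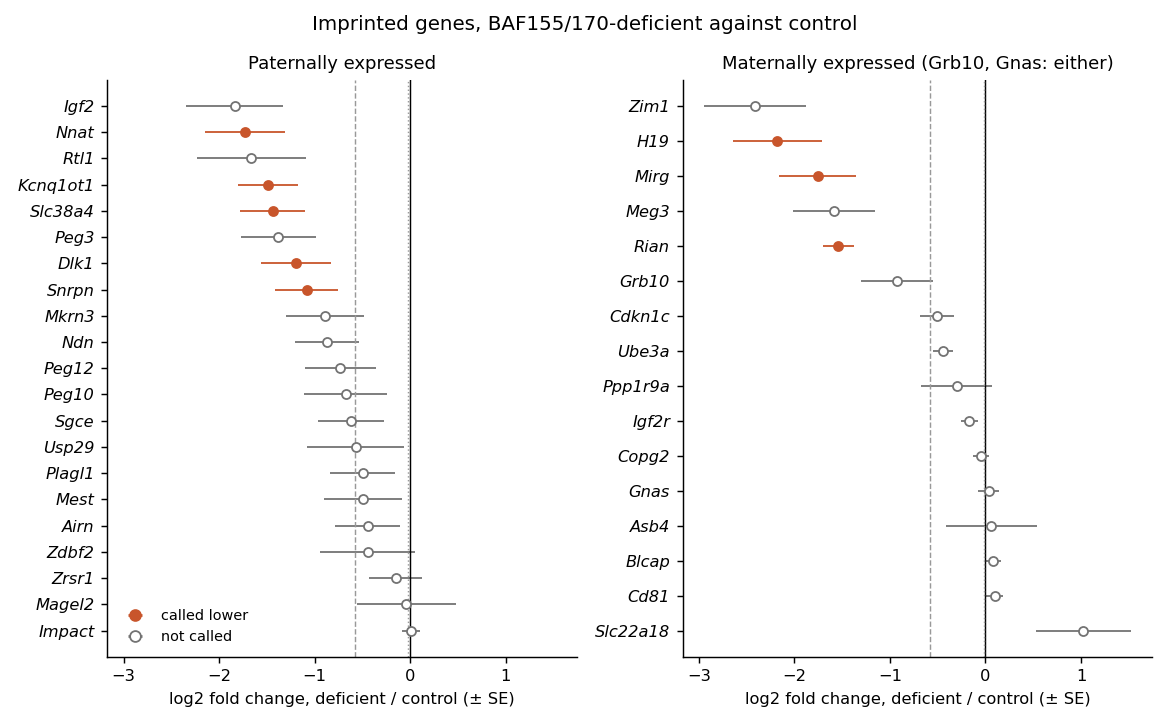
Each point is 1 of the 37 tested imprinted genes, with its log2 fold change of deficient over control on the x axis and a bar for the standard error; filled points were called lower, the dashed line marks −0.58 and the dotted line the median of all genes. Of the paternally expressed genes 20 of 21 lie below 0, down to −1.84 for Igf2, and the maternally expressed genes range from −2.42 for Zim1 to 1.02 for Slc22a18. Zim1 and Slc22a18 each reached the filter level in 1 group alone, so the filter fixed their directions.

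Single libraries decided how many members were called. Leaving out control replicate 1 gave 0 calls, with 15 members lower at an unadjusted p under 0.05 (edgeR), against 17 with all libraries. There was 1 call without control replicate 2, deficient replicate 2 or deficient replicate 3, and there were 14 without control replicate 3 and 9 without deficient replicate 1. Over all genes the share called lower in these fits was 0 when control replicate 1 was left out, 0.426% when control replicate 2 was and 8.45% when control replicate 3 was. For the deficient group it was 7.24%, 1.53% and 0.119% when replicates 1, 2 and 3 were left out in turn. No member called lower changed sign in any of these fits. Rian was the member called in 5 of the 6 fits, and its adjusted p without control replicate 1 was 0.214 in edgeR's quasi-likelihood test. With limma-voom 5 members were called beside 5.04% of all genes, H19, Dlk1 and Nnat being the ones lost.

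At the H19-Igf2 locus on chromosome 7 both genes were below every control in every deficient library, and H19 was called lower. H19, a maternally expressed noncoding RNA that hosts miR-675 (chr7:142575529-142578143, minus strand), had 47.9, 78.5 and 26.8 CPM in controls against 13.4, 9.41 and 10.7 CPM in deficient libraries. The groups were well apart, and the controls spread 2.93-fold among themselves. Its log2 fold change was −2.18 ± 0.46 (SE), 4.53-fold lower, with an adjusted p of 0.088 (edgeR's quasi-likelihood test, Benjamini-Hochberg). Igf2, the paternally expressed insulin-like growth factor 2 of the same locus (chr7:142650766-142666816, minus strand), had 37.1, 70.2 and 23.2 CPM against 16.1, 10.5 and 9.73 CPM. It was not called (−1.84 ± 0.51, adjusted p = 0.112 in the edgeR test), although its groups did not overlap, and the order of the controls was the same for both genes, with replicate 2 highest and replicate 3 lowest.
The log2 ratio of H19 to Igf2 was 0.24 ± 0.11 (SD, n = 3) in controls and −0.10 ± 0.21 (SD, n = 3) in deficient libraries. These ratios did not overlap, and the difference of −0.34 had p = 0.1 in a two-sided exact permutation test, the smallest p that 3 against 3 allows, and 0.40 after Benjamini-Hochberg adjustment over the 8 pairs tested. Mature miR-675, processed from the first exon of H19, is shown as the small RNA product of the called gene, with the seed that pairs with targets (bases 2 to 8) in capitals. It is encoded on the minus strand at chr7:142577112-142577133 (5p) and chr7:142577078-142577099 (3p).
mmu-miR-675-5p: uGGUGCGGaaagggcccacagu
mmu-miR-675-3p: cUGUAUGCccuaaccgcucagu
The arms carry different seeds. The row of the Mir675 precursor held 0 counts in all 6 libraries, which are poly(A) libraries of long RNA and do not measure mature miRNAs.

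At the Dlk1-Dio3 locus on chromosome 12, all 5 members had a log2 fold change below −1, and 3 were called lower. Rian, a maternally expressed noncoding RNA that hosts small nucleolar RNAs (chr12:109603940-109661716, plus strand), had the smallest adjusted p of any member. Its levels were 34.6, 36.7 and 24.4 CPM in controls and 11.6, 11.9 and 9.31 CPM in deficient libraries, and fell by 1.54 ± 0.16 (SE) on the log2 scale with an adjusted p of 0.022 (edgeR, Benjamini-Hochberg). Every control was above every deficient library.
Mirg, the miRNA-containing noncoding RNA at the far end of the locus (chr12:109729764-109749460, plus strand), had 4.68, 5.89 and 3.04 CPM against 1.96, 1.47 and 0.67 CPM, a change of −1.76 ± 0.40 with an adjusted p of 0.063 in the edgeR test. Meg3, the noncoding RNA at its near end (chr12:109541001-109571726, plus strand, start window above), had 30.2, 49.2 and 19.7 CPM against 11.4, 13.9 and 7.55 CPM. Meg3 did not overlap between groups and was not called (−1.59 ± 0.43, adjusted p = 0.103 in the edgeR test).
The paternally expressed genes of the locus had values of the same direction. Dlk1, a transmembrane protein of the Delta family that restrains differentiation (chr12:109452823-109463336, plus strand), had 10.4, 14.6 and 5.58 CPM in controls and 5.87, 4.34 and 3.13 CPM in deficient libraries. It was called lower (−1.19 ± 0.37, adjusted p = 0.098 in the edgeR test), yet control replicate 3 lay below deficient replicate 1. Rtl1, a retrotransposon-derived gene read antisense to several miRNAs, had 1.64 to 6.15 CPM in controls and 0.475 to 1.65 CPM in deficient libraries, overlapped and was not called (−1.66, adjusted p = 0.114 in the edgeR test).
Neither ratio tested within the locus differed past the threshold. The log2 ratio of Rian to Meg3 differed by 0.01 (exact permutation p = 1.0) and that of Meg3 to Dlk1 by −0.40 (exact permutation p = 0.2, adjusted 0.40), from 1.70 ± 0.15 to 1.29 ± 0.36 (SD, n = 3 each).

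In the Kcnq1 domain on chromosome 7 the noncoding RNA fell, and no other tested member was called. Kcnq1ot1 (chr7:143203458-143296549, minus strand), the paternally expressed antisense RNA within Kcnq1, had 74.3, 83.9 and 57.04 CPM in controls and 37.3, 19.7 and 20.1 CPM in deficient libraries. The groups were well apart, and the change was −1.49 ± 0.31 (SE), 2.81-fold lower, with an adjusted p of 0.083 (edgeR, Benjamini-Hochberg). With offsets corrected for exon length, which is 93092 bases for this row, the change was −0.88 and still called.
Cdkn1c, the maternally expressed cell cycle inhibitor p57 (chr7:143458339-143461050, minus strand), had 49.2, 66.2 and 39.7 CPM against 39.2, 35.3 and 34.1 CPM. All deficient libraries lay below all controls, though the lowest control and highest deficient value were nearly equal. The study, which used limma, reports reduced Cdkn1c expression in deficient NCCs. Here Cdkn1c was not called (−0.50 ± 0.18, unadjusted p = 0.024 and adjusted p = 0.127 in the edgeR test). Per kilobase of exon it was the most abundant member in both groups, with 25.4 CPM per kb in controls and 17.8 in deficient libraries.
Cd81, a tetraspanin imprinted mainly in placenta, had 28.3, 31.3 and 27.6 CPM against 30.9, 33.1 and 29.1 CPM, with control replicate 2 inside the deficient range (0.10 ± 0.09, adjusted p = 0.505 in the edgeR test). Slc22a18, a transporter gene beside Cdkn1c, was the single member with all deficient libraries above all controls, at 0.401 to 0.744 CPM in controls and 0.807 to 2.02 CPM in deficient libraries, and it was not called (1.02 ± 0.50, adjusted p = 0.210 in the edgeR test). Its counts were 3 to 9 in controls and 15 to 33 in deficient libraries. Slc22a18 reached the filter level through deficient libraries alone, so its direction was fixed by the filter. Phlda2 and Ascl2, known for their roles in placenta, had 0 or 1 and 0 to 7 counts a library and were not tested.

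Of the Prader-Willi and Angelman syndrome region on chromosome 7, all 6 members had negative values, and Snrpn was called. Snrpn (chr7:59982495-60140219, minus strand), a paternally expressed gene for a splicing protein, had 3.94, 3.75 and 2.30 CPM in controls and 1.41, 1.96 and 1.28 CPM in deficient libraries. All controls were above all deficient libraries (−1.08 ± 0.33, adjusted p = 0.089 in edgeR's quasi-likelihood test). Exons of Snrpn share 589 bases (27.3%) with the row Gm38393 on the same strand and 216 bases with Snurf, so its level depends on how shared reads were assigned.
Ube3a, the ubiquitin ligase that is maternally expressed in neurons, had 43.1, 40.3 and 35.5 CPM against 32.7, 29.0 and 25.7 CPM. It did not overlap and passed the adjusted p but not the fold limit (−0.45 ± 0.10, adjusted p = 0.065 in the edgeR test), a criterion that 7.75% of all genes met in this direction. With length-corrected offsets it was −0.10 with an adjusted p of 0.486 in the edgeR test, no longer past the limit. Ndn, the paternally expressed growth suppressor necdin, had 6.17, 7.36 and 3.28 CPM against 4.23, 2.57 and 2.37 CPM, with 1 deficient library inside the control range (−0.87 ± 0.34, adjusted p = 0.130 in the edgeR test).
The other paternally expressed members there did not pass the test: Mkrn3 at −0.89 without overlap, Peg12 at −0.73 and Magel2 at −0.04. The log2 ratio of Ndn to Snrpn differed by 0.24 (exact permutation p = 0.7).

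At the Nnat-Blcap locus on chromosome 2 the members parted. Nnat, a paternally expressed proteolipid of neural and endocrine cells (chr2:157560078-157562522, plus strand), had 26.7, 44.8 and 15.9 CPM in controls and 9.24, 9.90 and 6.98 CPM in deficient libraries. It was called lower with no overlap (−1.73 ± 0.42 (SE), 3.31-fold, adjusted p = 0.093 in edgeR's quasi-likelihood test). Blcap, whose span encloses Nnat and which is maternally biased in brain (chr2:157556362-157571274, minus strand), had 35.5, 39.5 and 37.6 CPM against 37.6, 39.0 and 42.1 CPM.
Blcap overlapped between groups and varied 1.11-fold among controls (0.08 ± 0.08, adjusted p = 0.543 in the edgeR test). The log2 ratio of Blcap to Nnat was 0.49 ± 0.71 (SD, n = 3) in controls and 2.19 ± 0.34 (SD, n = 3) in deficient libraries. This was the largest difference among the 8 pairs, 1.71, with no overlap and p = 0.1 in the exact permutation test, which is the smallest it can give (adjusted 0.40). Among the start windows shown above, the capitals of Nnat have no counterpart in that of Blcap, and both hold 17 CpG.

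The remaining paternally expressed loci gave 1 call. Slc38a4, an amino acid transporter (chr15:96994820-97055956, minus strand), had 3.19, 5.22 and 2.71 CPM in controls and 1.57, 1.34 and 1.14 CPM in deficient libraries, without overlap (−1.44 ± 0.34 (SE), adjusted p = 0.064 in edgeR's quasi-likelihood test). Peg3, a zinc finger protein of growth and maternal behaviour (chr7:6703892-6730431, minus strand), had 46.2, 57.7 and 31.1 CPM against 24.5, 17.1 and 10.7 CPM. Peg3 did not overlap and was not called (−1.38 ± 0.39, adjusted p = 0.114 in the edgeR test).
In the same domain the maternally expressed Zim1 had 1.72 to 3.21 CPM in controls and 0.142 to 0.783 CPM in deficient libraries, 21 to 25 counts against 3 to 10. Zim1 passed the adjusted p, with the most negative estimate of any member (−2.42 ± 0.53, adjusted p = 0.057 in the edgeR test), and missed the call because its mean was 1.51 CPM. It reached the filter level through control libraries alone, so its direction was fixed by the filter. Usp29, which shares the start window of Peg3, had 7 to 12 counts a library and was not called (−0.57).
Peg10, a retrotransposon-derived gene needed in placenta, had 65.1, 52.7 and 36.5 CPM against 50.5, 26.5 and 20.5 CPM. Sgce, epsilon-sarcoglycan, starts beside it on the other strand and had 5.11, 3.21 and 4.51 CPM against 4.46, 2.26 and 1.85 CPM. Both overlapped and neither was called (−0.68 ± 0.44 and −0.62 ± 0.35, adjusted p = 0.390 and 0.266 in the edgeR test), and the log2 ratio of Peg10 to Sgce differed by −0.07 (exact permutation p = 0.8).
Mest, a mesoderm-specific hydrolase, had 62.2, 53.6 and 30.5 CPM against 46.8, 35.1 and 22.0 CPM, overlapping and not called (−0.50 ± 0.41, adjusted p = 0.497 in the edgeR test). Copg2, a coatomer subunit that shares 912 exon bases with Mest on the opposite strand, had 30.9, 34.8 and 30.0 CPM against 31.6, 30.7 and 30.1 CPM (−0.05 ± 0.08, adjusted p = 0.749 in the edgeR test). The log2 ratio of Copg2 to Mest differed by 0.45 (exact permutation p = 0.4).
None of Plagl1 (−0.50), Zdbf2 (−0.45) and Zrsr1 (−0.15) was called, and deficient replicate 3 was the lowest of the 6 libraries for Plagl1 and Zdbf2. Nap1l5 had 1 to 10 counts a library and was not tested.

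Several members of higher level were close to 0 in log2 fold change. Impact, a paternally expressed regulator of translation, had 28.4, 28.6 and 26.5 CPM in controls and 29.6, 29.1 and 25.2 CPM in deficient libraries (0.01 ± 0.09, adjusted p = 0.973 in edgeR's quasi-likelihood test). Gnas, the stimulatory G protein alpha subunit with parent-specific first exons, had 36.2, 39.3 and 32.1 CPM against 32.1, 42.3 and 34.9 CPM (0.03 ± 0.11, adjusted p = 0.885 in the edgeR test). The row of Gnas sums all its isoforms, and its biallelic main transcript cannot be told apart from the imprinted ones.
Igf2r, the maternally expressed receptor that clears IGF2, had 79.7, 80.4 and 63.5 CPM against 66.5, 67.0 and 64.8 CPM, with control replicate 3 below all deficient libraries (−0.17 ± 0.09, adjusted p = 0.233 in the edgeR test). Airn, the paternal antisense RNA that silences it, had 2.02, 2.27 and 1.80 CPM against 1.25, 1.89 and 1.28 CPM (−0.45 ± 0.34, adjusted p = 0.416 in the edgeR test). The log2 ratio of Igf2r to Airn differed by 0.32 (exact permutation p = 0.2, adjusted 0.40), and Slc22a3, a placental target of Airn, had 0 to 2 counts a library and was not tested.
Grb10, an adaptor that restrains insulin and IGF signalling and is maternal in mesoderm and paternal in neurons, had the highest mean CPM of the members in controls, while Igf2r did in deficient libraries. Grb10 had 102, 131 and 71.0 CPM against 71.4, 54.7 and 33.8 CPM, with control replicate 3 and deficient replicate 1 nearly equal (−0.93 ± 0.38, adjusted p = 0.205 in the edgeR test). The maternally expressed Ppp1r9a (−0.30) and Asb4 (0.06) were not called, and both overlapped.

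**Figure D2:**
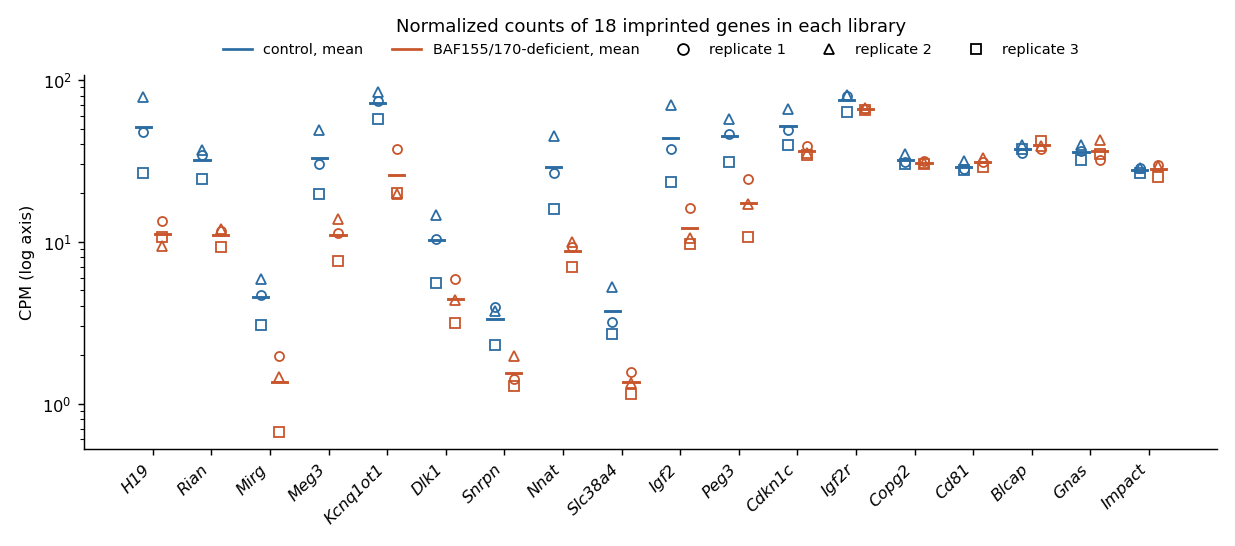
The CPM of 18 members in each library on a log axis, with controls in blue, BAF155/170-deficient libraries in orange, a symbol for each replicate and a bar for the group mean. H19 runs from 26.8 to 78.5 CPM in controls and from 9.41 to 13.4 CPM in deficient libraries, while Blcap stays between 35.5 and 42.1 CPM in all 6.

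Grouped by the expressed copy, 5 of 21 paternally (23.8%) and 3 of 14 maternally expressed genes (21.4%) were called lower, beside 4.88% of all genes. The median log2 fold change was −0.73 for the paternally expressed group, with 20 of 21 negative. It was −0.37 for the maternally expressed group, with 10 of 14 negative, where 52.3% of all genes were negative. With length-corrected offsets the maternal median was −0.083. The difference between these classes was not tested, and they are not alike in make-up, since 7 members, all maternally expressed, are imprinted mainly in placenta, brain or another restricted setting. Among the 9 tested maternally expressed genes that are imprinted broadly the median was −1.54, with 3 called. The 9 include Zim1 and Slc22a18, whose directions were fixed by the filter.
Over both classes, the 30 tested broadly imprinted genes had a median of −0.80, with 27 negative (90.0%) and 8 called lower (26.7%). Of all genes 52.3% were negative and 4.88% called lower. The 5 tested genes of restricted imprinting (Cd81, Ppp1r9a, Copg2, Ube3a and Blcap) had a median of −0.05. By edgeR 0 were called, 1 (Ube3a) passed the adjusted p and 1 was lower at an unadjusted p under 0.05. The shares of all genes in this direction were 4.88%, 7.75% and 15.2%, so among 5 genes a count of 0 called is near the share of all genes. The groups also differed in level, with a median of 6.23 CPM for broadly imprinted members and 31.4 CPM for restricted ones. Of the 17 members with a mean of at least 20 CPM, 3 were called lower and the median was −0.50, while of the 5226 genes at that level 51 were called lower and the median was 0.10.

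The level of the group differed between libraries of the same genotype. Relative to the control mean, the median paternally expressed gene stood at 0.08, 0.24 and −0.41 in the 3 controls on a log2(CPM + 0.5) scale and at −0.53, −0.77 and −1.24 in the deficient libraries. The median maternally expressed gene stood at 0.09, 0.17 and −0.28 and at −0.21, −0.29 and −0.59, where control replicate 3 overlapped the deficient group. Control replicate 2 was the highest library and deficient replicate 3 the lowest in both classes.
Lists of cell type markers were set beside these values, and they did not all move in the same direction. All 52 tested genes of a list of 65 embryonic crest, neural and neural tube markers were negative, and the median was −0.93. Of them 18 (34.6%) were called lower, where 4.88% of all genes were. Their summed level was 597, 824 and 462 CPM in controls and 409, 321 and 304 CPM in deficient libraries, with no marker at 0 in every library. Control replicate 2 was highest and control replicate 3 lowest among controls, as for the imprinted genes.
All 14 macrophage markers were positive, with a median of 0.18. By edgeR 0 were called, 1 passed the adjusted p and 10 were higher at an unadjusted p under 0.05. The shares of all genes in this direction were 0.0573%, 4.18% and 12.1%. They summed to 12595 to 14592 CPM in controls and 14689 to 16065 CPM in deficient libraries, and none was at 0. The 10 erythroid markers summed to 24.04, 61.1 and 16.7 CPM in controls and 15.3, 10.1 and 15.8 CPM in deficient libraries. Control replicate 2 was again highest, and the sums did not overlap between groups. Of the 6 erythroid markers tested, 4 were negative and 2 positive, with log2 fold changes from −2.07 to 0.48. The 7 neutrophil markers summed to 17.5 to 22.7 CPM in controls and 23.9 to 27.5 CPM in deficient libraries. Of the 3 neutrophil markers tested, 2 were positive and 1 negative, so neither list moved as one. None of the tested genes of either list passed the adjusted p in edgeR's quasi-likelihood test. The part of these cells in the lower level of imprinted genes was not tested. When libraries were scaled to 39 of the embryonic markers in place of all genes, the median of all genes moved to 0.99 and that of the paternally expressed members to 0.31. On that scale H19, Igf2, Mirg and Nnat were called lower, where 0.38% of all genes were, and 10 members higher, where 70.2% of all genes were. Of the 31 members that were negative, 18 turned positive on it, among them Cdkn1c, Mest and Grb10, and 13 remained negative.

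**Figure D3:**
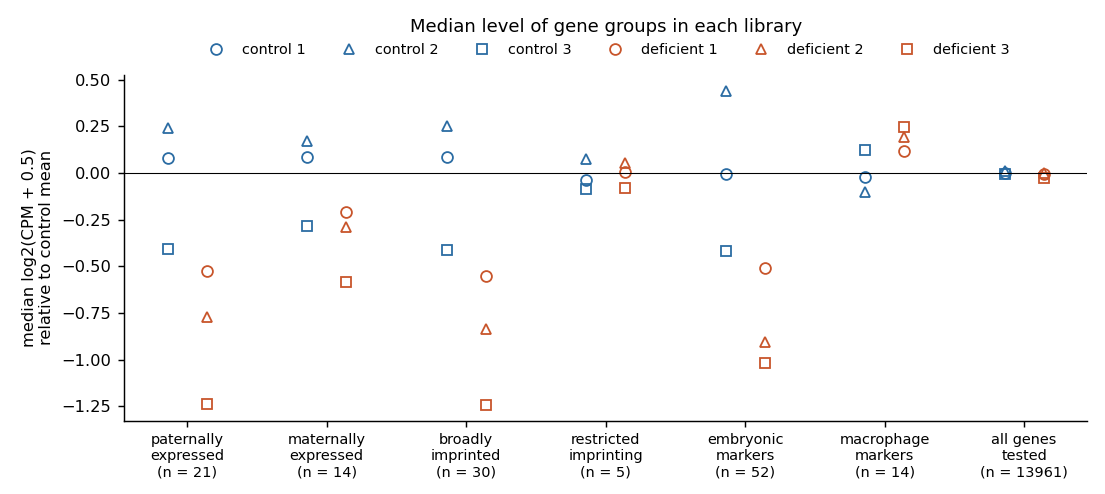
Each symbol is the median, over the tested genes of a group, of log2(CPM + 0.5) in 1 library relative to the control mean. Broadly imprinted genes (−0.55 to −1.24 in deficient libraries) and embryonic markers (−0.51 to −1.02) are lower, macrophage markers are at 0.12 to 0.25, and genes of restricted imprinting lie between −0.08 and 0.07 in all 6 libraries.

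Genes beside the members had a median near that of all genes. Of 516 annotated genes within 250 kb of a member, 80 were tested, with 41 negative values, a median of −0.03 and 4 called lower, or 5.0%. The 4 were Col1a2 (a fibrillar collagen beside Peg10), Snhg14 and Gm38393 in the Snrpn domain, and Gm37899 in the Dlk1-Dio3 locus.
In the Dlk1-Dio3 locus the 3 tested neighbours, Gm26945, Gm37899 and B830012L14Rik, passed the adjusted p and lay on the strand of Meg3. They start 99.3, 128 and 155 kb beyond the start of Meg3, Gm26945 within the span of Rian and the others between Rian and Mirg, with log2 fold changes of −1.998, −1.90 and −2.45 (adjusted p = 0.077, 0.077 and 0.067 in edgeR's quasi-likelihood test). Their means were 1.16, 4.31 and 1.40 CPM in controls and 0.30, 1.183 and 0.26 CPM in deficient libraries. Gm26945 and B830012L14Rik reached the filter level through control libraries alone, so their direction was fixed by the filter, and the count of 3 is no result about the locus. Next to H19 none of 4 tested neighbours was called, with Ctsd at 0.18 and Lsp1, which passed the adjusted p, at 0.25, and in the Kcnq1 domain none of 8 was.

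**Figure D4:**
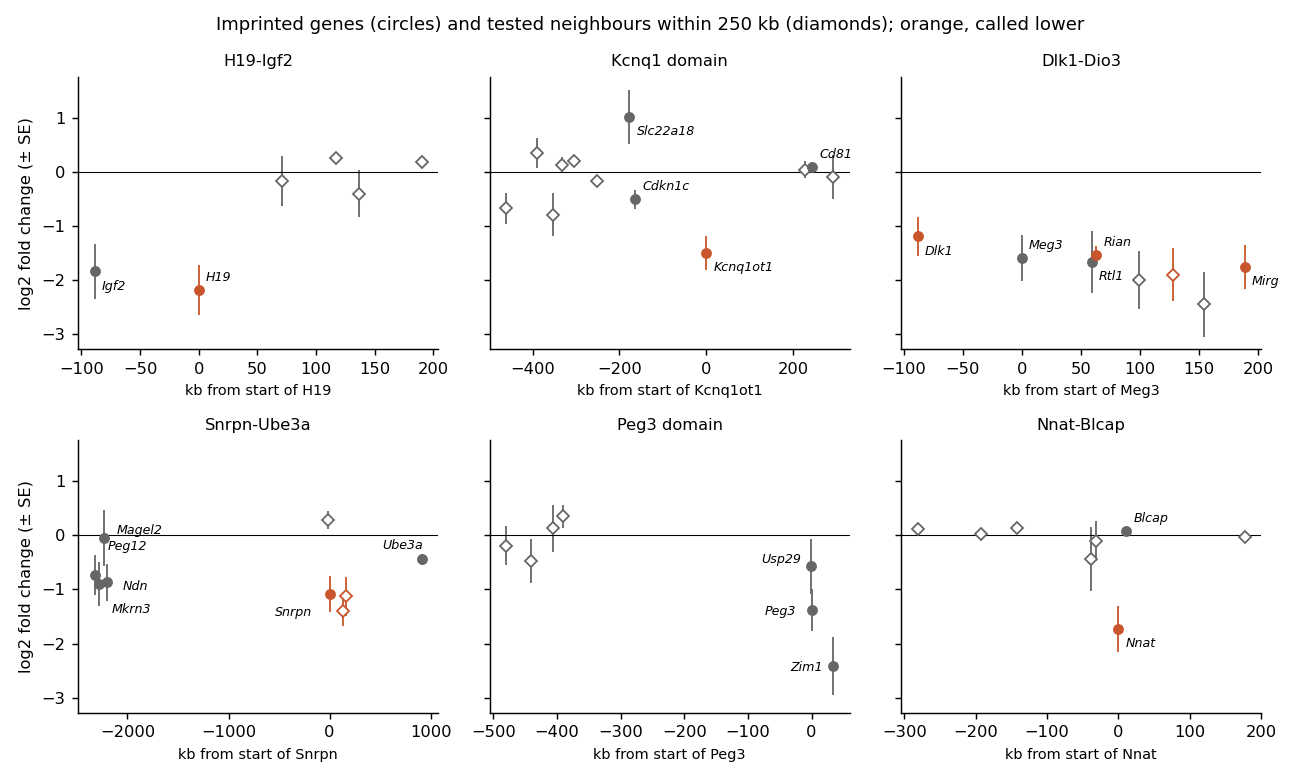
Log2 fold changes with standard errors of members (circles) and tested neighbours (diamonds) against the distance of their start from that of a reference gene, in 6 clusters; orange marks genes called lower. In the Dlk1-Dio3 panel the 5 members lie below −1. The neighbours Gm26945 and B830012L14Rik there reached the filter level through control libraries alone, which fixed their direction. In the Nnat-Blcap panel Nnat stands at −1.73 among genes near 0.

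Of 40 further genes listed as imprinted, 26 were tested, with 14 negative values and a median of −0.09. Of these, 2 (7.69%) were called lower, Snhg14 and Peg13, where 4.88% of all genes were. Snhg14, the paternally expressed noncoding transcript that runs from Snrpn antisense to Ube3a, had 5.21, 6.56 and 5.17 CPM against 4.31, 2.20 and 1.42 CPM (−1.13 ± 0.36, adjusted p = 0.097 in edgeR's quasi-likelihood test). Peg13, a paternally expressed noncoding RNA within an intron of Trappc9, had means of 10.4 and 5.21 CPM (−1.0002 ± 0.23, adjusted p = 0.062 in the edgeR test). Trappc9 itself had a log2 fold change of 0.00. Ano1, a chloride channel, passed the adjusted p at a mean of 1.49 CPM (−1.19), and Qpct, glutaminyl cyclase, passed it in the other direction (0.29). Past the adjusted p there were thus 3 lower and 1 higher of the 26, where 7.75% and 4.18% of all genes were.
Among 27 genes that set, read or keep imprints, 25 were tested and 1, Hells, was called lower, a share of 4.0% beside 4.88% of all genes. Hells, a chromatin remodeller needed for DNA methylation, had means of 14.03 and 6.34 CPM (−1.17 ± 0.25, adjusted p = 0.060 in the edgeR test). Ehmt1, Setdb1, Tet3 and Arid4b, which write, erase or read chromatin marks, passed the adjusted p with log2 fold changes of −0.51, −0.33, −0.48 and −0.43, short of the fold limit. With Hells, 5 of the 25 passed the adjusted p and were lower, where 7.75% of all genes did so.
The others did not pass. Ctcf, the insulator protein of the H19 control region, was at −0.02 ± 0.08, the maintenance methyltransferase Dnmt1 at −0.44 ± 0.17, its partner Uhrf1 at −0.76 ± 0.34, Trim28, the corepressor that ZFP57 recruits, at −0.28 ± 0.13, and Zfp57 at −0.61 ± 0.50. The median of the 25 was −0.33, and 18 were negative, where 52.3% of all genes were. For 8 of the 25 (32.0%) all deficient libraries lay below all controls, with 16.4% of all genes doing so.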

How the data were processed

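The authors sorted GFP+ NCCs, prepared strand-specific poly(A) libraries, trimmed the paired-end reads, aligned them with STAR to GRCm38 and summed them per gene by featureCounts. The submitters' processing notes name FastQC 0.11.7 and cutadapt 1.18. The deposited values are counts per gene, whole numbers without normalization. Which annotation was used, how strand was set in the counting and how multi-mapping reads were treated are not given in the sources used here. The study's methods describe cells of 3 control and 3 deficient embryos, and the labels do not name the embryo of a library. The p-values measure the spread between these libraries.

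Members, allele classes and gene lists were chosen with earlier results of these data known, and none gives independent support for a direction. Identifiers were matched to GENCODE M21 without their version numbers (46488 of 46983 rows). Values in every library are given for members that were called, had a mean of at least 20 CPM or entered a tested ratio, and genes outside the 41 are named where called or where 5 or fewer passed. The neighbours and genes near 0 named beside H19, Trappc9 and the imprint regulators that did not pass were picked after their values were seen.

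The tests were run with edgeR 4.0.16 (R 4.3.3): filterByExpr (minimum count 10, minimum total 15), TMM normalization and a robust quasi-likelihood fit with condition as the only term. The call rule has the limits in the study's methods. CPM were computed on normalized library sizes, where 1 count was worth 0.0475 to 0.134 CPM, with a common biological coefficient of variation of 12.8%. Standard errors come from the F statistic. Ratios within a locus were log2 ratios of counts with 0.5 added to each count. They were tested by exact permutation for the 8 of 11 pairs with a mean of at least 10 counts in each group. Alternatives were DESeq2 1.42.0, limma-voom (limma 3.58.1), library totals, scaling to embryonic markers, other filters and thresholds, offsets corrected for exon length, a replicate block and each library left out in turn. On simulated data of this comparison, where 200 of 13961 genes were given a log2 fold change of size 2, 98% were recovered with 26 false calls. The changed genes were drawn only from those with higher counts, so the 98% does not cover members of low count or smaller change. Figures were drawn with matplotlib 3.10.9.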

Additional observations from a re-analysis of the deposited data

How the results depend on the processing

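The 8 members called lower became 5 with limma-voom (5.04% of all genes), 12 with DESeq2 (6.25%), 9 with library totals (4.95%), 7 without a filter on low counts (3.02%), 8 with a filter of 1 CPM in 3 libraries (4.97%), 10 with length-corrected offsets (4.43%) and 1 (Rian) at an adjusted p of 0.05. DESeq2, library totals and length correction kept all 8, and the fit without a filter kept 5 of them. Leaving out 1 library gave 0 to 14 calls, and over all genes 0 (without control replicate 1) to 1219 (without control replicate 3). Leaving out a library kept the median log2 fold change between −1.05 and −0.63 for paternally expressed and between −0.51 and −0.26 for maternally expressed members. With length-corrected offsets the maternal median was −0.083.

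A replicate block gave 13 calls (8.19% of all genes), 7 of them among the 8, with H19 lost. The replicate numbers are those of the sample titles, and the labels do not state a pairing. The deposited columns of the deficient libraries carry other numbers, and a pairing by column number was not tried. For same-numbered libraries the correlations of deviations from the group means were 0.03, −0.03 and 0.29, and not every library correlated best with its own number.

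Scaling to embryonic markers gave 4 members lower and 10 higher, beside 0.38% and 70.2% of all genes, with medians of 0.31 for paternally and 0.62 for maternally expressed members against 0.99 for all genes. It takes the average marker as unchanged, and so removes any change that the markers and the members share. Under it 18 members turned from negative to positive, 8 of them not listed here. The other 10 were Cdkn1c 0.56, Peg10 0.32, Sgce 0.31, Mest 0.53, Copg2 0.98, Grb10 0.11, Ndn 0.20, Ube3a 0.56, Airn 0.58 and Igf2r 0.87. Values near 0 changed sign elsewhere: Copg2 was 0.015 with library totals, 0.0013 without a filter, 0.0049 with length correction and between −0.091 and 0.016 with a library left out, and Igf2r was 0.0089 with length correction. Impact was −0.0013 with limma-voom. With a library left out Impact ran from −0.036 to 0.078, Gnas from −0.085 to 0.11, the log2 ratio of Rian to Meg3 from −0.21 to 0.15, Peg10 to Sgce from −0.34 to 0.16 and Ndn to Snrpn from −0.071 to 0.51. The cause of these changes was not tested.

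Depth limits the members under about 2 CPM: Zim1, Slc22a18, Usp29, Mkrn3 and Airn, which enters a tested ratio, rested on 3 to 33 counts a library. With 3 libraries a group, the smallest p of an exact test of a ratio is 0.1.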
